A study of Mus musculus with 12 samples.

Results

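The effect of the CBP phosphosite mutation on the transcriptome of colonic crypts was measured as a single difference averaged over both p53 states. The 6 CBPAA libraries were compared with the 6 CBPWT libraries, with p53 state as a covariate, so that all 12 libraries of the series took part and each represented 1 mouse. Of the 55471 genes listed, 14610 had enough reads to be tested. The groups were CBPWTp53-floxed, CBPAAp53-floxed, CBPWTp53ΔIEC and CBPAAp53ΔIEC, with 3 mice in each. All mice carried floxed p53 alleles, and in the p53ΔIEC groups a Villin-Cre transgene, which is active in intestinal epithelial cells, had deleted them. The CBPAA allele is a knock-in of the whole body in which serines 1383 and 1387 of CBP are replaced with alanines, so its difference from CBPWT is not restricted to the epithelium. The study's methods give female mice at 8 weeks of age and a C57BL/6 background, named as C57BL/6J in its reporting summary. The methods name both a strain other than C57BL/6 and C57BL/6N as the source of the embryonic stem cells. Littermates served as CBPWT controls, and crypts were released from the colon with EDTA.

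CBP, the product of *Crebbp*, is a histone acetyltransferase and coactivator that binds CREB, p53, NF-kB, β-catenin-containing complexes and many other transcription factors, and together with its paralog p300 it acetylates histones at enhancers and promoters. Factors compete for a limited pool of CBP and p300, and phosphorylation by IKKα is known to shift CBP from p53 towards NF-kB. In the colonic crypt, stem cells at the base renew the epithelium under Wnt signals, and their progeny become absorptive colonocytes or secretory goblet, enteroendocrine and tuft cells.

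The mutated codons lie in exon 25 of *Crebbp* (ENSMUSG00000022521, chromosome 16 of GRCm38, 4081328 to 4213997, minus strand), within the coding sequence of a protein of 2441 residues. They are shown in their wild-type form, because they define the comparison. The stretch is chr16:4094266-4094320 on the minus strand, from GENCODE M21, and the capitals mark the codons of serines 1383 and 1387.
Crebbp exon 25: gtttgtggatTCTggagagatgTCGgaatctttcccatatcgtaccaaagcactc
A single gene, *Clec16a*, passed the test described below, and the 250 bases before its start in RefSeq (GRCm38.p6, chr16:10545089-10545338, plus strand) are shown as the promoter of the gene on which the result turns.
Clec16a promoter: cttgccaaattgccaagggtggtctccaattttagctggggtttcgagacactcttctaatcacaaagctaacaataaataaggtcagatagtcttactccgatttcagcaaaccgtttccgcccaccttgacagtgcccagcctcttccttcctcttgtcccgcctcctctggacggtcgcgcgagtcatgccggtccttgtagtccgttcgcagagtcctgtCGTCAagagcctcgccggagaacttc
The capitals mark the only match, on the reverse strand, to the half-site TGACG of the cAMP response element bound by CREB, a match that 17.8% of 32851 promoter windows of the same length also held. The full element TGACGTCA, of which the half-site is a part, and the E-box CACGTG were searched on both strands and were not in this window. They were in 1.55% and 6.02% of all windows.

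The reads assigned to genes numbered 11177430 to 18029125 per library, with a median of 13568754 in CBPAA and 14703190 in CBPWT libraries. *Trp53*, deleted in the p53ΔIEC groups, had 39.3 to 52.6 CPM (counts scaled to library size with TMM factors) in the 6 p53-floxed libraries and 5.01 to 10.4 CPM in the 6 p53ΔIEC libraries, so every label was borne out for that gene. *Crebbp*, whose codons are changed but whose transcript is not deleted, had 39.6 to 52.7 CPM in CBPAA and 38.1 to 57.6 CPM in CBPWT libraries, and these ranges overlapped (log2 fold change 0.05, SE 0.10). These counts cannot tell the mutated from the wild-type codon, so the CBP genotype itself was not checked by them. Markers of the colonic epithelium were abundant in every library. The summed level per length and library (TPM) of 25 colonocyte markers was 32723 to 53587, while that of 28 stroma and muscle markers was 6.19 to 10.8, with *Cnn1*, *Mgp*, *Foxf1* and *Rspo3* at 0 in all libraries. Endothelial markers summed to 6.92 to 9.03 TPM, with *Cdh5* and *Eng* at 0.

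Some libraries stood apart in RNA of another part of the gut. A list of 20 small intestine and Paneth cell markers summed to 207 to 270 TPM in 8 libraries, but to 26015 TPM in CBPWTp53ΔIEC replicate 1, 7677 TPM in CBPAAp53ΔIEC replicate 3, 3594 TPM in CBPAAp53ΔIEC replicate 1 and 2200 TPM in CBPAAp53-floxed replicate 2. The 4 libraries with high values comprised 3 CBPAA and 1 CBPWT libraries. Values without these libraries are therefore given beside the results they touch. Without them CBPAAp53ΔIEC keeps only replicate 2, so any value then given for p53ΔIEC crypts rests on 1 mouse in that group. In bulk samples such as these, fewer cells of a type and less RNA per cell cannot be told apart.

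**Figure D1:**
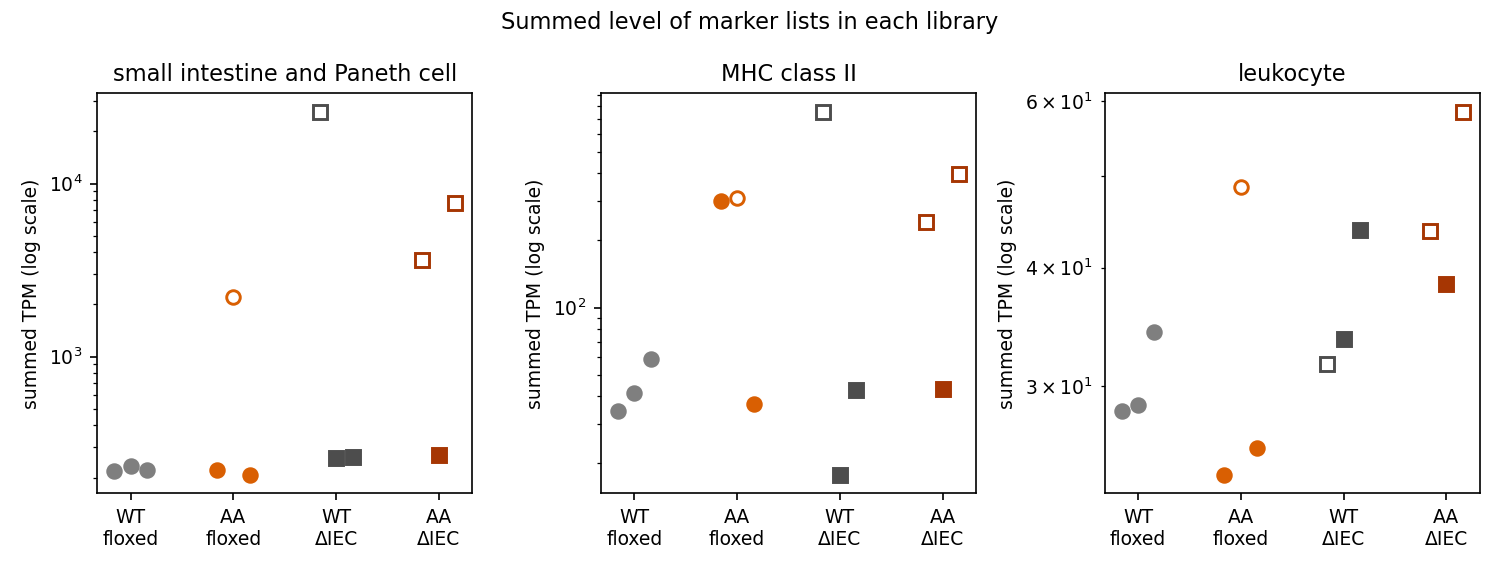
Summed TPM (log axis) of the small intestine and Paneth cell, MHC class II and leukocyte marker lists, with 1 point per library in each of the 4 groups; open symbols are the 4 libraries highest in the small intestine and Paneth cell list. For that list 8 libraries sit at 207 to 270 TPM and the 4 others at 2200 to 26015 TPM.

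*Clec16a* was the only gene called between the CBP genotypes over both p53 states. *Clec16a* (ENSMUSG00000068663, chromosome 16 of GRCm38, 10545339 to 10744878, plus strand) encodes a membrane-associated protein of the endosomal and lysosomal system with a role in mitophagy. It rose 1.78-fold in CBPAA crypts (log2 fold change 0.83, SE 0.08, 95% confidence interval 0.66 to 1.00, adjusted p = 0.000573 by edgeR's quasi-likelihood test with Benjamini-Hochberg adjustment). The cutoff for a call was an adjusted p under 0.05 together with a log2 fold change over 0.5 in either direction, and this single call is 0.00684% of the genes tested. It had 201 to 749 reads per library.

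In p53-floxed crypts, *Clec16a* had 25.9, 25.8 and 24.9 CPM in the CBPWT mice and 46.1, 42.2 and 42.5 CPM in the CBPAA mice. In p53ΔIEC crypts, it had 18.8, 23.4 and 22.8 CPM in the CBPWT mice and 36.1, 41.5 and 43.1 CPM in the CBPAA mice. The 6 CBPAA libraries lay above all 6 CBPWT libraries, with no overlap in either p53 state. On the scale of TPM, its level was 7.95 ± 0.0936 (SD, n = 3) in CBPWTp53-floxed, 12.5 ± 1.89 (SD, n = 3) in CBPAAp53-floxed, 6.70 ± 1.70 (SD, n = 3) in CBPWTp53ΔIEC and 12.6 ± 0.958 (SD, n = 3) in CBPAAp53ΔIEC crypts.

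The log2 fold change of *Clec16a* was 0.77 (SE 0.11) in p53-floxed and 0.89 (SE 0.11) in p53ΔIEC crypts, and the interaction, 0.12 (SE 0.15), did not pass the test (unadjusted p = 0.458). Within single states, the adjusted p of edgeR's quasi-likelihood test was 0.058 in p53-floxed and 0.0269 in p53ΔIEC crypts. The call in p53ΔIEC crypts was lost when any of 10 of the 12 libraries was left out (adjusted p from 0.0403 to 0.240 over the 12), while the log2 fold change there stayed at 0.80 to 0.96. The call held without CBPAAp53-floxed replicate 2 and without CBPAAp53ΔIEC replicate 1. The averaged difference had a log2 fold change of 0.81 (SE 0.08, adjusted p = 0.000158 by edgeR's quasi-likelihood test) without the 4 libraries high in small intestine RNA. It stayed called without any 1 library, at 0.78 to 0.86.

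**Figure D2:**
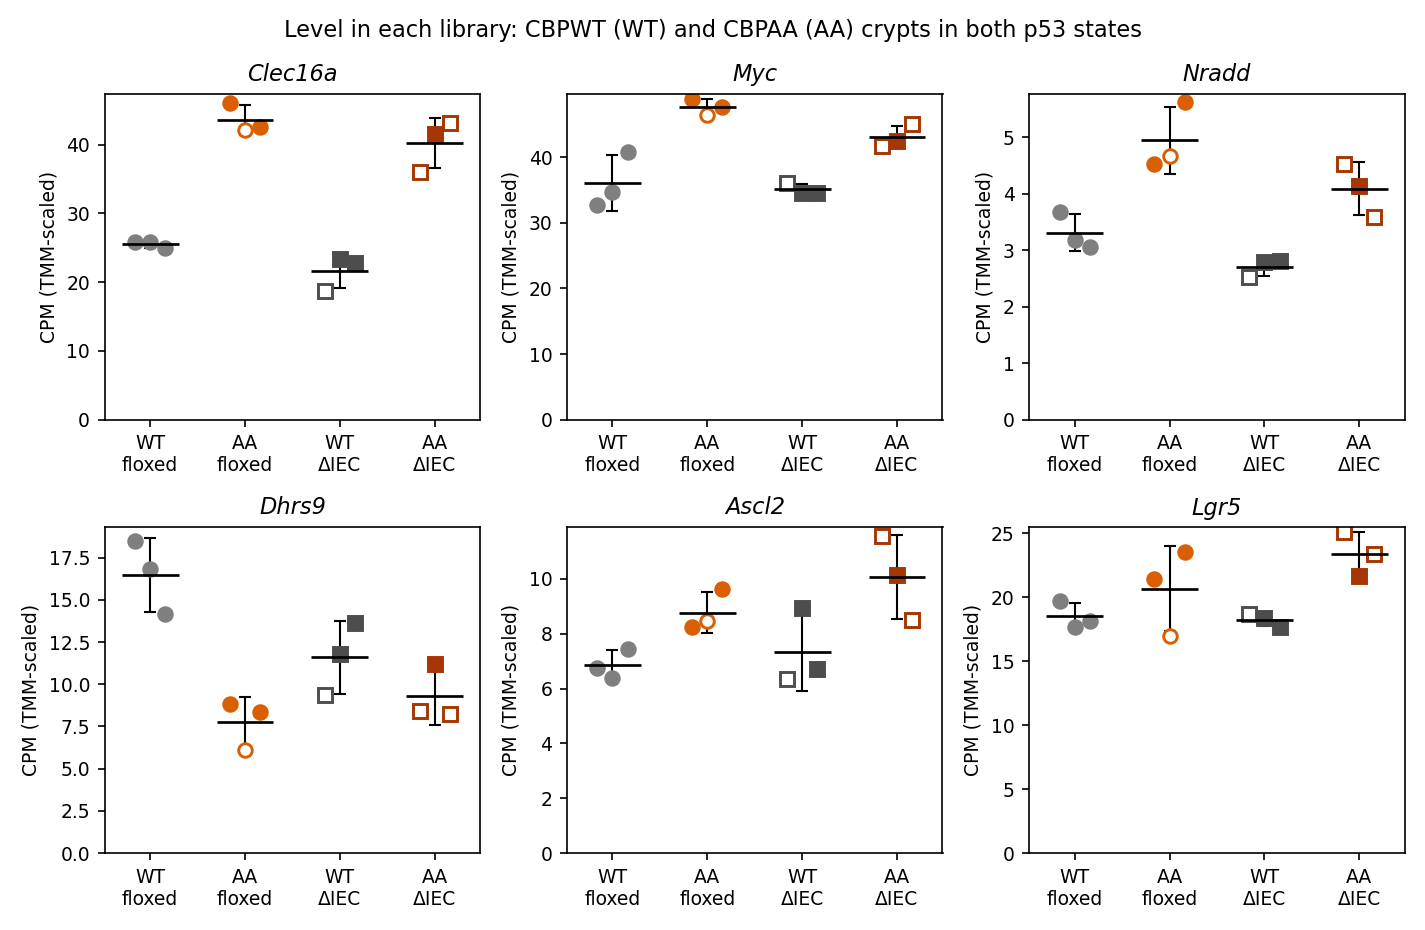
Level in CPM scaled with TMM factors of 6 genes in each library, with the mean and SD of each group of 3 mice; WT and AA stand for CBPWT and CBPAA, and open symbols are the 4 libraries high in small intestine RNA. The CBPAA libraries of *Clec16a* (36.1 to 46.1 CPM) and *Myc* (41.8 to 48.9 CPM) lie above all CBPWT libraries, and those of the other genes overlap with them.

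*Clec16a* lies 6.33 Mb from *Crebbp* on the same chromosome. The mutated allele and the stretch of chromosome 16 inherited with it cannot be told apart in these groups. The genes next to *Clec16a* did not pass the test: among 17 other genes tested within 1 Mb, the median log2 fold change was 0.06, with 11 above and 6 below 0. At an unadjusted p under 0.05 there were 2 of the 17, beside 2.21% of all genes tested. These were *Litaf*, a regulator of protein sorting in late endosomes, with -0.17 (SE 0.07), and ENSMUSG00000076258, annotated as a miRNA on the opposite strand of *Zc3h7a*, with 1.61 (SE 0.71) at 22.5 to 325 CPM in CBPAA and 23.5 to 66.1 CPM in CBPWT libraries. The neighbour upstream, *Dexi*, which is transcribed from the opposite strand, had a log2 fold change of 0.09 (SE 0.11), and *Socs1*, an inhibitor of cytokine signalling on the other side, had 0.42 (SE 0.29). *Ciita*, the master activator of MHC class II genes and the neighbour of *Dexi*, had 0.76 with an SE of 0.81. The antisense gene *Gm15558*, which overlaps *Clec16a* on the opposite strand, is listed at 0 reads in all libraries. These neighbours were named after their values were seen.

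Over a window of 20 Mb around *Crebbp*, 191 genes were tested and 9 (4.71%) had an unadjusted p under 0.05, against 323 of all 14610 genes tested (2.21%). The share was 5.88% for 272 genes on the rest of chromosome 16 and 2.11% for 14147 genes on other chromosomes. Chromosome 16 had the highest share of all chromosomes, 5.4%, followed by chromosome 14 with 2.85%. Of the 25 chromosome 16 genes, 8 were on the higher and 17 on the lower side in CBPAA. Apart from *Clec16a*, none had an adjusted p under 0.05 by edgeR's quasi-likelihood test, and the shares by distance had no single order. Within 10 Mb of *Crebbp* 5 of 75 genes (6.67%) had an unadjusted p under 0.05, and the 2 genes of chromosome 16 whose CBPAA and CBPWT libraries did not overlap, *Clec16a* and *Tmem186*, both lie there. *Tfrc*, the transferrin receptor that takes up iron, is another of the 25 chromosome 16 genes. It had 299 to 371 CPM in CBPAA and 343 to 461 CPM in CBPWT libraries, which overlapped (log2 fold change -0.25, SE 0.08, unadjusted p = 0.00908).

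**Figure D3:**
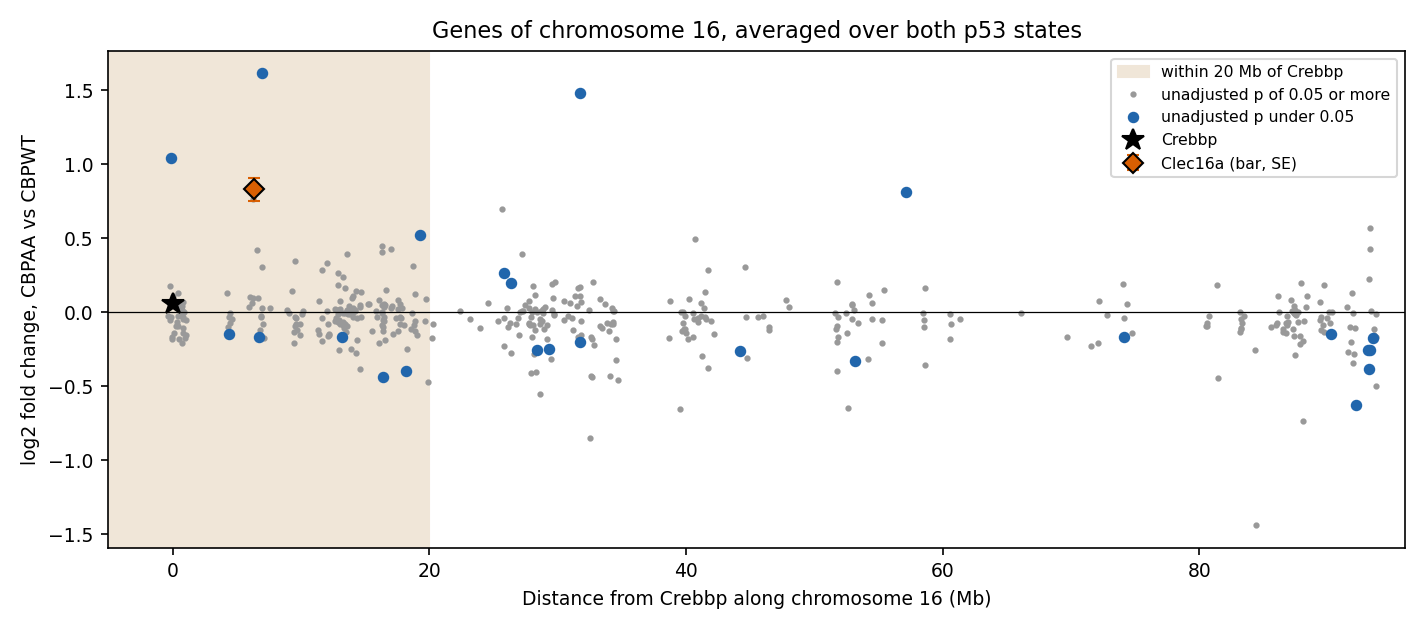
Log2 fold change of CBPAA vs CBPWT, averaged over both p53 states, of each gene tested on chromosome 16 against its distance from *Crebbp* in Mb; the shaded band is the window of 20 Mb and the bar on *Clec16a* is its SE. *Clec16a* is at 6.33 Mb and 0.83, *Crebbp* itself is at 0.05, and genes with an unadjusted p under 0.05 are spread along the chromosome.

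No other gene of the 14610 tested passed the test. The adjusted p of each was 1.00 by edgeR's quasi-likelihood test with Benjamini-Hochberg adjustment, and the genes named from here on are given as values and not as changes. At an unadjusted p under 0.05, 186 genes (1.27%) were on the higher and 137 (0.938%) on the lower side in CBPAA crypts. That count of 323 was 1180 without CBPWTp53ΔIEC replicate 1 and 1094 without the 4 libraries high in small intestine RNA, with *Clec16a* still the only gene called in the latter. The median SE of the log2 fold change was 0.13 over all genes, and for 9851 genes (67.4%) the 95% confidence interval lay wholly between -0.5 and 0.5. For 13443 genes (92%) it lay between -1 and 1. A CBP effect of 2-fold in both p53 states is thus outside the interval of most genes. The cutoff allowed no call at a log2 fold change under 0.5 in size. By the adjusted p of edgeR alone, *Clec16a* was also the only gene, so effects of that size may have been missed.

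The groups did not overlap for 12 genes, 0.0821% of those tested, of which 9 (0.0616%) were higher and 3 (0.0205%) lower in all 6 CBPAA libraries. Such separation can also arise by chance, and the number to be expected was not worked out. *Myc*, the proto-oncogene and Wnt target that drives growth and ribosome synthesis, had the smallest unadjusted p after *Clec16a*. Its level was 41.8, 45.7 and 48.9 CPM (lowest, median and highest) in CBPAA and 32.7, 34.7 and 40.8 CPM in CBPWT libraries. The log2 fold change was 0.35 (SE 0.07, unadjusted p = 0.000179), with 0.40 in p53-floxed and 0.30 in p53ΔIEC crypts. DESeq2 gave *Myc* an adjusted p of 0.0232, but its fold change is below the cutoff. *Crtc2*, a coactivator that works with CREB and CBP, also did not overlap, at 48.6 to 58.2 CPM in CBPAA and 40.8 to 48.1 CPM in CBPWT libraries (log2 fold change 0.17, SE 0.07). *Snhg17*, a host gene of small nucleolar RNAs, had 23.4 to 27.0 against 18.7 to 22.8 CPM.

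The others above CBPWT were *Mthfs*, an enzyme of folate metabolism, with a log2 fold change of 0.41, the T cell receptor constant gene *Trbc1* with 1.39, and *Gm8113*, *Gm5846* and *Gm38563* with 0.74, 0.63 and 0.89. *Trbc1*, *Gm8113* and *Gm38563* had medians of 0.705, 1.14 and 0.784 CPM in CBPAA libraries, so these fold changes rest on few reads. *Gm5846* is a processed pseudogene and *Trbc1* has a close copy, so reads may be shared between copies. The 3 genes below CBPWT were *Susd1* (-0.62), *Tmem186* (-0.15) and *Pkdrej* (-0.40). *Tmem186*, on chromosome 16 near *Crebbp*, had 31.5 to 37.3 CPM in CBPAA and 37.4 to 41.2 CPM in CBPWT libraries, a gap of little size. These genes were named for not overlapping, after their values were seen.

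Among the remaining genes of smallest unadjusted p, *Nradd*, a death-domain membrane protein related to the neurotrophin receptor, had 3.59, 4.53 and 5.62 CPM in CBPAA and 2.52, 2.93 and 3.68 CPM in CBPWT libraries. Its log2 fold change was 0.58 (SE 0.13) and almost the same in both states, 0.58 and 0.59. *Pou6f1*, a homeobox transcription factor, had 0.34 (SE 0.09), and *Sptssb*, a subunit of the serine palmitoyltransferase of sphingolipid synthesis, had -0.33 (SE 0.10). *Sirpa*, a receptor of the CD47 signal that is mostly found on myeloid cells, had 0.760 to 1.81 CPM in CBPAA and 1.68 to 2.21 CPM in CBPWT libraries. *Cyp3a44*, a cytochrome P450 with close paralogs, had -0.98 (SE 0.28), and *Lhfpl2* had -0.33 (SE 0.10). *Hoxd3os1*, antisense to the *Hoxd* cluster, had -1.12 (SE 0.31) at under 1 CPM in every CBPAA library. The 3 left of the rule's genes, *2900005J15Rik*, *Gm9776* and *Gm38560*, had 0.52, 0.45 and 0.77.

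The CBP and p300 machinery itself showed little difference. None of the 22 tested genes for CBP, p300 and acetyltransferase partners was called, and the list's median log2 fold change was -0.02, beside -0.00273 over all genes. The 1 member at an unadjusted p under 0.05 was *Cited2*, a CBP-binding inhibitor of HIF-1, at -0.22 (SE 0.09). Of all genes, 0.938% were on the lower side at that cutoff. For all 22 the 95% confidence interval lay between -1 and 1. Among the 8 genes for IKK kinases and NF-kB subunits, the upstream side of CBP phosphorylation, none reached an unadjusted p under 0.05, the median was 0.00366, and every interval lay between -0.5 and 0.5. *Rela*, the p65 subunit, had 0.07 (SE 0.08).

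Targets of the factors that compete for CBP showed no shared difference of a size that the test called. Epithelial *Trp53* was deleted in the p53ΔIEC mice, so this average dilutes any difference that needs p53. For p53 targets, the median log2 fold change was 0.08 in p53-floxed and -0.02 in p53ΔIEC crypts. The same medians were 0.18 and -0.09 for NF-kB targets, and 0.19 and -0.03 for CREB targets and immediate early genes. A difference between states was not tested for these lists. Of 32 tested p53 targets, 0 had an unadjusted p under 0.05, 20 were above and 12 below 0, and the median was 0.03. The member of smallest p was *Apaf1*, the scaffold of the apoptosome, at -0.12 (SE 0.09). *Cdkn1a*, which encodes the cell cycle inhibitor p21, had 185 to 287 CPM in CBPAA and 171 to 301 CPM in CBPWT libraries (log2 fold change 0.06, SE 0.14, 95% confidence interval -0.24 to 0.36). *Mdm2*, the ubiquitin ligase of p53, had 0.03 (SE 0.09, interval -0.16 to 0.22). For 30 of the 32 targets the interval lay between -1 and 1. Of 18 tested NF-kB targets, 0 were at an unadjusted p under 0.05 (median 0.05), and *Traf2*, an adaptor of TNF receptors, came nearest with -0.16 (SE 0.08). For 12 of these 18 the interval lay between -1 and 1. In the fit without the 4 libraries high in small intestine RNA, 3 of the 18 were higher and 2 lower at that cutoff. These counts stand beside 3.39% and 3.8% of all genes. In the same fit 0 of the 32 p53 targets reached the cutoff. Of 24 CREB targets and immediate early genes, 0 were at an unadjusted p under 0.05 with all libraries. Their median was 0.07, and *Ier2* had 0.16 (SE 0.09).

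Genes of stem cells and Wnt signalling had 4 of 25 tested members at an unadjusted p under 0.05, all on the higher side in CBPAA, where 1.27% of all genes were. They were *Myc* (above), *Ascl2*, the transcription factor that keeps crypt base cells in the stem cell state, *Lgr5*, the stem cell receptor for R-spondins, and *Tcf7*, a Wnt effector that also marks T cells. The list's median was 0.07, and 16 members were above and 9 below 0. *Ascl2* had 8.23, 9.06 and 11.6 CPM in CBPAA and 6.35, 6.72 and 8.94 CPM in CBPWT libraries (log2 fold change 0.40, SE 0.12), which overlapped. *Lgr5* had 17.0, 22.5 and 25.1 CPM against 17.7, 18.2 and 19.7 CPM (0.26, SE 0.09). Only CBPAAp53-floxed replicate 2, one of the libraries high in small intestine RNA, had less *Lgr5* than the CBPWT libraries. Without the 4 such libraries, 7 of 25 members were on the higher side at an unadjusted p under 0.05, beside 3.39% of all genes, and *Ascl2* and *Lgr5* had 0.37 and 0.28. *Lgr5* shares its place with *A930009A15Rik* on the opposite strand, and the use of strand in counting is not given in the sources used here. Of 35 proliferation genes, 0 were at an unadjusted p under 0.05. Their median was -0.13, with 0.22 in p53-floxed and -0.34 in p53ΔIEC crypts, and it was 0.06 without the 4 libraries.

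Interferon response and MHC class I genes had 7 of 28 members at an unadjusted p under 0.05, all on the higher side in CBPAA, where 1.27% of all genes were, and 26 of 28 above 0, with a median of 0.29. *Dhx58* and *Rigi*, sensors of foreign RNA, had log2 fold changes of 0.51 (SE 0.13) and 0.34 (SE 0.10). *Dhx58* had 11.6, 13.6 and 16.9 CPM in CBPAA and 8.12, 9.44 and 12.9 CPM in CBPWT libraries, so the groups overlapped. *Irf9*, a transcription factor of the interferon response, had 0.28 (SE 0.13), and the induced genes *Rtp4*, *Xaf1* and *Oas1a* had 0.52, 0.46 and 0.20. Without the 4 libraries 7 of 28 were on the higher side at an unadjusted p under 0.05, beside 3.39% of all genes, with a median of 0.45, but *Rtp4* and *Xaf1* no longer were among them. *Rtp4* had 0.88 in p53ΔIEC and 0.16 in p53-floxed crypts, and its interaction did not pass the test (adjusted p = 0.482 by edgeR's quasi-likelihood test).

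Most leukocyte markers were also on the higher side. Of 14 tested leukocyte markers, 13 were above 0, with a median of 0.29, and *Cd7* and *Cd8a*, both of T cells, had 0.58 and 0.58 at an unadjusted p under 0.05. Of all genes, 1.27% were on the higher side at that cutoff. The summed level of all 24 leukocyte markers was 24.1 to 58.5 TPM in CBPAA and 28.2 to 43.8 TPM in CBPWT libraries, and none was at 0 in all libraries. Without the 4 libraries, which include the 2 with the highest leukocyte sums, the median of the leukocyte markers was 0.06 and *Cd7* had -0.00469, while the median of the interferon list was 0.45. All 7 tested MHC class II genes were above 0 (median 0.76), but the summed level ranged from 37.1 to 399 TPM in CBPAA and from 17.7 to 757 TPM in CBPWT libraries. CBPWTp53ΔIEC replicate 1 was the highest of all, CBPAAp53-floxed replicate 1 had 301 TPM with little small intestine RNA, and the list's median was 2.35 in p53-floxed and -0.50 in p53ΔIEC crypts. *Saa3*, an acute phase protein, had 5.50 to 13.7 CPM in CBPAA and 2.83 to 11.7 CPM in CBPWT libraries (0.98, SE 0.33).

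**Figure D4:**
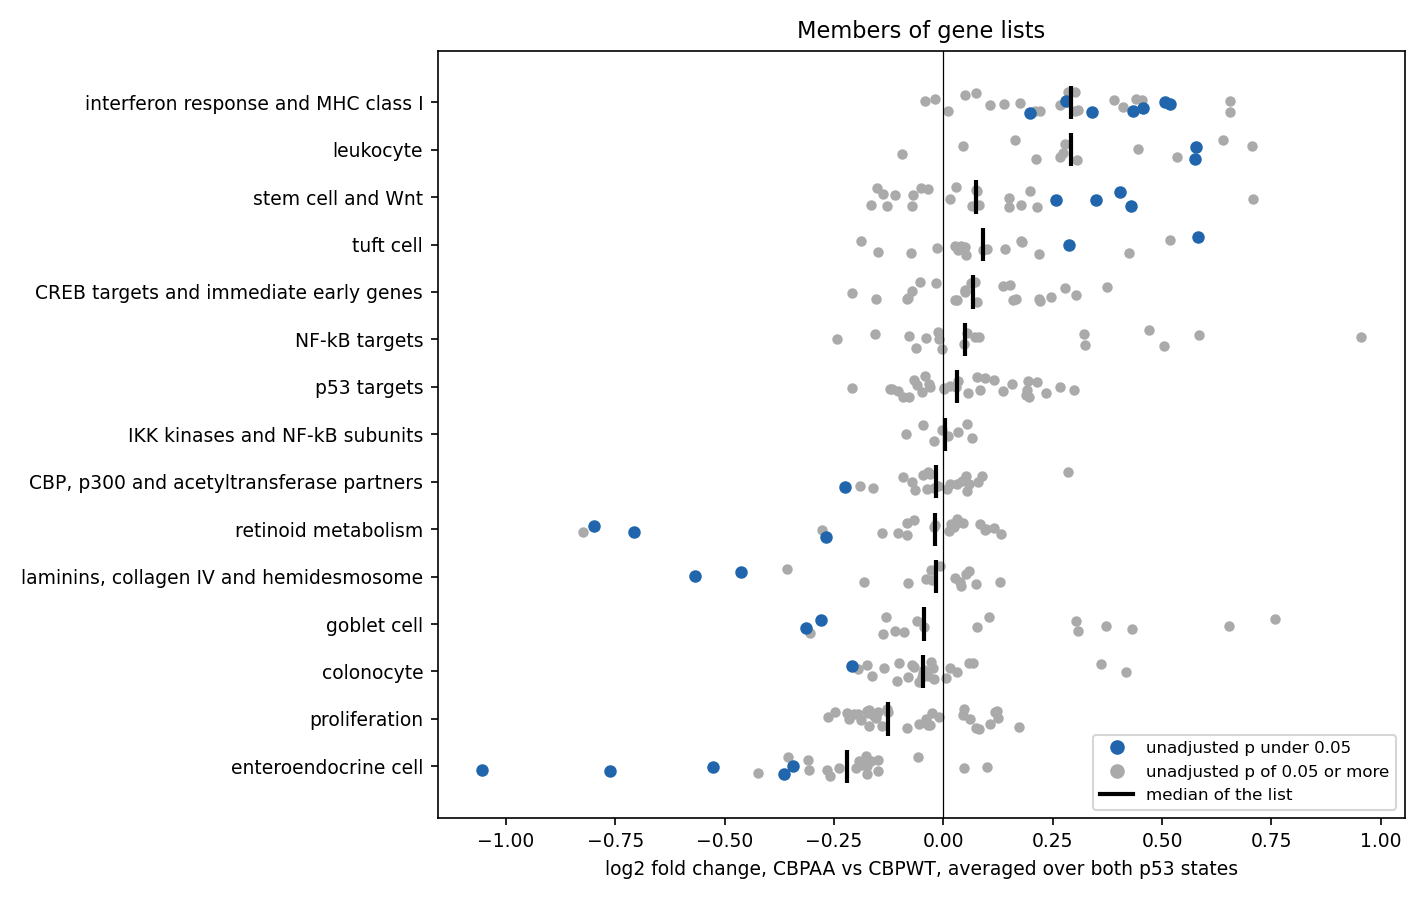
Log2 fold change of CBPAA vs CBPWT, averaged over both p53 states, for each tested member of 15 gene lists; blue points have an unadjusted p under 0.05, grey points do not, and the black bar is the list's median. The medians lie between -0.22 for enteroendocrine cell genes and 0.29 for leukocyte and interferon genes.

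Among secretory and absorptive cell types, enteroendocrine genes stood on the lower side. Of 24 tested, 22 were below 0, with a median of -0.22, and 5 had an unadjusted p under 0.05, all lower in CBPAA, where 0.938% of all genes were. These were the hormone genes *Gcg* (-0.34, SE 0.13), *Cck* (-1.06, SE 0.41) and *Insl5* (-0.53, SE 0.23), the granule protein gene *Scg2* (-0.76, SE 0.32) and *Tph1* (-0.36, SE 0.17), the enzyme that makes serotonin in enterochromaffin cells. *Gcg*, the source of GLP-1, had 18.4, 25.2 and 38.1 CPM in CBPAA and 28.8, 34.5 and 38.8 CPM in CBPWT libraries, which overlapped. The list's median was -0.38 in p53-floxed and -0.13 in p53ΔIEC crypts, and without the 4 libraries it was -0.40, with 6 members on the lower side at an unadjusted p under 0.05, beside 3.8% of all genes. With all libraries, the goblet cell list had 2 of 17 members at an unadjusted p under 0.05, both lower, where 0.938% of all genes were. They were *Spdef*, the factor of goblet cell maturation, at -0.31 (SE 0.11), and *Muc2*, the main mucin of the colon, at -0.28 (SE 0.13). The list as a whole was split, with 8 members above and 9 below 0 and a median of -0.04. In the fit without the 4 libraries, 1 goblet cell gene was higher and 3 were lower at that cutoff. The shares of all genes there were 3.39% and 3.8%. The tuft cell list had 2 of 19 at an unadjusted p under 0.05 with all libraries, both higher, where 1.27% of all genes were. These were *Alox5ap* at 0.58 (SE 0.23) and *Sh2d6* at 0.29 (SE 0.12). In the fit without the 4 libraries 1 of the 19 was higher at that cutoff, beside 3.39% of all genes. *Sh2d6* had 0.08 (SE 0.12) in that fit. The colonocyte list had 1 of 25 at the cutoff with all libraries, *Ceacam20* at -0.21 (SE 0.09), where 0.938% of all genes were lower. Of its 25 members, 18 were below 0, with a median of -0.05. *Ocln*, a tight junction protein, had the smallest p of both the epithelium and the junction lists, at -0.15 (SE 0.07), and no member of either reached an unadjusted p under 0.05.

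Retinoid genes had 3 of 23 tested members at an unadjusted p under 0.05, all on the lower side in CBPAA, where 0.938% of all genes were. The list's median was -0.02, with 11 members above and 12 below 0. *Dhrs9*, a retinol dehydrogenase that takes part in retinoic acid synthesis, had 6.08, 8.40 and 11.2 CPM in CBPAA and 9.34, 13.9 and 18.5 CPM in CBPWT libraries (log2 fold change -0.71, SE 0.17). It was -1.09 in p53-floxed, where the groups did not overlap, and -0.32 in p53ΔIEC crypts. *Isx*, a repressor of β-carotene uptake, had -0.27 (SE 0.10). *Aldh1a3*, which makes retinoic acid, had -0.80 (SE 0.36), with -0.25 in p53-floxed and -1.36 in p53ΔIEC crypts. *Lama3*, a chain of laminin-332 of the basement membrane, had 15.3, 19.0 and 26.9 CPM against 16.5, 33.8 and 45.4 CPM (-0.57, SE 0.21), with -1.05 in p53-floxed and -0.08 in p53ΔIEC crypts. *Hspg2*, the basement membrane proteoglycan perlecan, had -0.46 (SE 0.19). Both *Lama3* and *Hspg2* were of the 16 tested laminin, collagen IV and hemidesmosome genes, whose median was -0.02. They were its members at an unadjusted p under 0.05, beside 0.938% of all genes on the lower side. None of these 5 genes passed the test of the interaction, with an adjusted p of 0.482 for *Dhrs9* and *Lama3* by edgeR's quasi-likelihood test.

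*Vcan*, the matrix proteoglycan versican, had 1.36, 1.24 and 1.69 CPM in CBPAAp53-floxed and 3.05, 4.54 and 3.89 CPM in CBPWTp53-floxed crypts, which did not overlap. In p53ΔIEC crypts it had 3.00, 4.78 and 2.97 CPM in CBPAA and 2.05, 3.68 and 4.02 CPM in CBPWT mice, which overlapped. The averaged log2 fold change was -0.61 (SE 0.29), and the interaction, 1.56 (SE 0.42), did not pass the test, with an adjusted p of 0.482 by edgeR's quasi-likelihood test. Of the other 12 tested genes for versican proteases and chondroitin sulfate enzymes, 0 had an unadjusted p under 0.05.

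The list of gasdermins and type 2 response genes had 3 of 15 tested members on the higher side at an unadjusted p under 0.05, beside 1.27% of all genes, with a median of -0.04 and 9 members below 0. *Gsdmc2*, *Gsdmc4* and *Gsdmc3*, pore-forming proteins of the type 2 response, had averaged log2 fold changes of 0.59, 0.46 and 0.37. In the fit without the 4 libraries high in small intestine RNA, 0 of the 15 were higher and 1 was lower at that cutoff. The shares of all genes there were 3.39% and 3.8%. The 3 gasdermins had 0.73 (SE 0.44), 0.66 (SE 0.36) and 0.48 (SE 0.25) in that fit. *Gsdmc2* had 1.22 (SE 0.22) in p53-floxed and -0.03 (SE 0.21) in p53ΔIEC crypts, and its interaction did not pass the test, with an adjusted p of 0.482 by edgeR's quasi-likelihood test. These genes are near copies of each other, and reads may be split between them. Other lists had at most 2 members at an unadjusted p under 0.05. *Egfr*, the receptor of epidermal growth factor, had -0.24 (SE 0.10), and *Cry1* of the circadian clock had -0.36 (SE 0.15). *Etv5*, a target of ERK signalling that lies within 20 Mb of *Crebbp* on chromosome 16, had -0.40 (SE 0.18). Of all genes, 0.938% were on the lower side at that cutoff.

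Across all genes, the CBP effect in p53-floxed crypts and that in p53ΔIEC crypts, which have no library in common, were mostly of opposite sign. Of the 14610 genes, 36.3% had the same sign in both, and Pearson's r across genes, which are not independent replicates, was -0.31. Both values depended on 1 library: without CBPWTp53ΔIEC replicate 1, r was 0.53 and 49.4% of genes had the same sign. Without the 4 libraries high in small intestine RNA, r was -0.03 and 46.8% had the same sign. CBPAAp53ΔIEC was replicate 2 alone in that fit, so both values rest on 1 mouse there. The 18 tested small intestine and Paneth cell genes had a median log2 fold change of 3.72 in p53-floxed and -1.02 in p53ΔIEC crypts, following the high libraries of either arm. At an unadjusted p under 0.05 there were 1174 genes (8.04%) within p53-floxed, 521 (3.57%) within p53ΔIEC crypts and 1502 (10.3%) for the interaction. Genes called numbered 0 within p53-floxed by edgeR and 34 by DESeq2, and 1 within p53ΔIEC by edgeR and 2 by DESeq2.

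**Figure D5:**
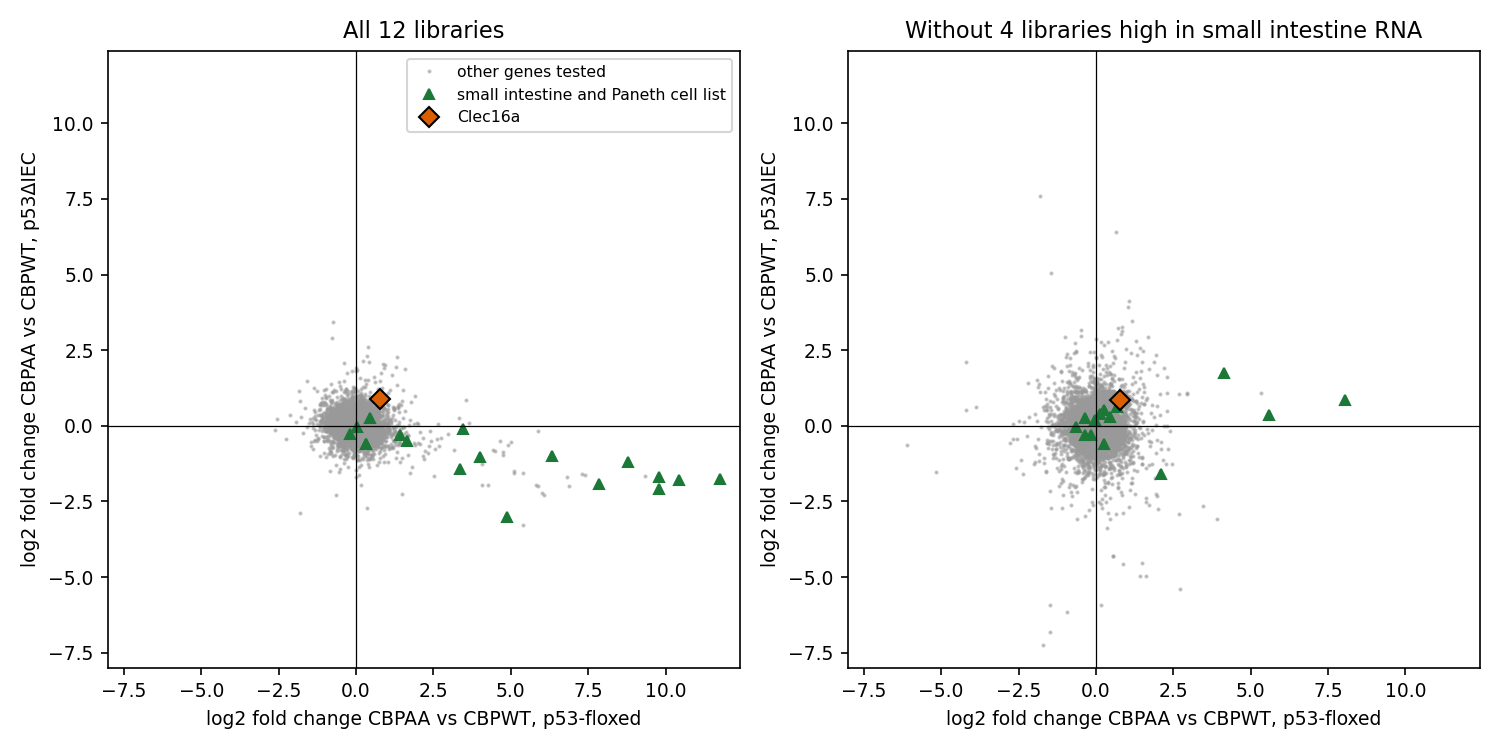
Log2 fold change of CBPAA vs CBPWT in p53-floxed crypts (horizontal) against that in p53ΔIEC crypts (vertical) for each gene tested, with all 12 libraries on the left and without the 4 libraries high in small intestine RNA on the right. On the right, the CBPAAp53ΔIEC group is replicate 2 alone. *Clec16a* lies in the upper right of both, at 0.77 and 0.89 with all libraries, and the small intestine and Paneth cell genes extend to the right with a median of 3.72 in p53-floxed crypts.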

How the data were processed

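RNA-seq was performed on colonic crypts of 12 mice. The authors deposited 1 table with raw read counts and TPM per gene and library, together with log2 fold changes and adjusted p-values of their own comparisons, which were not used. The submitters' processing notes name fastp 0.20.0, FastQC 0.11.9, HISAT2 2.1.0, SAMtools 1.9 and featureCounts of Subread 2.0.1 with GRCm38. The labels name a stranded kit, and the strand setting of the counting is not given in the sources used here. Positions were from GENCODE M21.

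The deposited counts were fitted with edgeR 4.0.16 in R 4.3.3, after filterByExpr (minimum count 10) and TMM scaling, by a robust quasi-likelihood model of CBP genotype and p53 state. Benjamini-Hochberg adjustment covered all genes tested. A fit of 4 groups gave the differences within each p53 state and the interaction. SE was derived from the F statistic. Deposited TPM served for marker sums and levels per length. A planned exact permutation test of single genes permuted CBP labels within each p53 state. For *Clec16a* it is not given, since it adds nothing where groups do not overlap. Its unadjusted p was 0.02 for *Lgr5*, 0.095 for *Vcan*, 0.22 for *Trp53*, 0.61 for *Crebbp*, 0.7 for *Cdkn1a* and 0.705 for *Mdm2*. P-values measure the spread between mice.

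Members and gene lists were chosen with earlier results of these data known. Named genes were *Crebbp*, *Trp53*, *Cdkn1a*, *Mdm2*, *Vcan*, *Lgr5*, all called genes, those of smallest unadjusted p up to 20 in all, and the member of smallest p of each of 32 lists. Further list members and genes without overlap were named after their values were seen, and some genes under these rules are not reported here. Alternatives were DESeq2 1.42.0, limma voom 3.58.1, other normalizations and filters, no covariate, a replicate block, single p53 states and each library left out. Leaving out 4 libraries high in small intestine RNA, and a small intestine covariate, were chosen after seeing the data. The fits were tested on simulated data. Plots were made in Python 3.11.15 with matplotlib 3.10.9.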

Additional observations from a re-analysis of the deposited data

Results flagged for a closer look

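Among the named genes, the values of the 6 CBPAA and of the 6 CBPWT libraries were examined for a single library far from the others, in 104 sets of 6 libraries, and 6 sets had one by Dixon's criterion, where chance alone gives about 1 in 20. In CBPWTp53ΔIEC replicate 1, *Sirpa* had 1.68 CPM against 2.05 to 2.21 CPM in the other CBPWT libraries. The same library had 14.8 CPM of *Ciita* against 0.824 to 4.25 CPM, and 11.7 CPM of *Saa3* against 2.83 to 5.84 CPM. In CBPAAp53-floxed replicate 2, *Apaf1* had 22.8 CPM against 29.9 to 31.9 CPM in the other CBPAA libraries, and *Edem1*, of the unfolded protein response, had 90.5 CPM against 108 to 115 CPM. In CBPAAp53ΔIEC replicate 2, *Cited2* had 54.5 CPM against 65.6 to 70.7 CPM.

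The interaction of CBP genotype with p53 state passed the test for 1 gene, *Gm10736*, a processed pseudogene whose reads may be shared with close copies. Its interaction was -1.71 on the log2 scale (SE 0.21, adjusted p = 0.0222 by edgeR's quasi-likelihood test), with 1.04 in p53-floxed and -0.67 in p53ΔIEC crypts. This call was lost when any of 9 of the 12 libraries was left out, with limma voom and with the replicate block, and it held without CBPAAp53-floxed replicate 1, CBPWTp53ΔIEC replicate 1 or CBPWTp53ΔIEC replicate 2. It had 10.9, 11.3 and 10.4 CPM in CBPWTp53-floxed, 18.0, 22.2 and 26.7 CPM in CBPAAp53-floxed, 18.5, 14.8 and 16.9 CPM in CBPWTp53ΔIEC, and 10.4, 11.0 and 10.1 CPM in CBPAAp53ΔIEC crypts.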

How the results depend on the processing

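*Clec16a* was the single gene called in the averaged comparison by edgeR, DESeq2 and limma voom, under every other normalization, filter, covariate and fold cutoff tried and without any 1 library. No gene was called from the p53-floxed or from the p53ΔIEC libraries alone (0 and 0), with 6 libraries each. The count at an unadjusted p under 0.05 (323) was 638 with no filter on low counts, 1559 from p53-floxed libraries only, 1094 without the 4 libraries high in small intestine RNA and between 226 and 1180 without 1 library. Genes called within p53-floxed crypts (0) numbered 34 with DESeq2, 2 with upper quartile normalization, 3 with no filter, 42 without the 4 libraries, 4 with the small intestine covariate, and 0 to 2 without 1 library. Those within p53ΔIEC crypts (1) numbered 2 with DESeq2, 0 with the replicate block and 0 to 1 without 1 library. The interaction (1) gave 30 with DESeq2, 0 with limma voom, 2 with no filter, 35 without the 4 libraries, 8 with the covariate, 0 with the block and 0 to 1 without 1 library. The cause of these differences was not tested.

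Of 52 named genes followed, 41 kept their direction and side of the cutoff under every alternative in which they could be tested, which were 22 to 26 of 26, and 10 reversed in at least 1. In p53-floxed libraries only, *Crebbp* had -0.13 and *Mdm2* -0.095. In p53ΔIEC libraries only, *Cdkn1a* had -0.052, *Vcan* 0.13, *Cdt1* -0.11, *Gsdmc2* -0.032, *Ciita* -0.080, *Ppara* 0.35 and *Vim* 0.12. Without CBPWTp53ΔIEC replicate 2 *Cdkn1a* had -0.010, and *Mdm2* had -0.030 without CBPWTp53ΔIEC replicate 1 and -0.00735 without CBPAAp53ΔIEC replicate 2. *Cd7* had -0.00469 without the 4 libraries. The correlation across genes of both within-state effects was 0.014 with limma voom and ranged from -0.40 to 0.53 without 1 library, 0.53 being the value without CBPWTp53ΔIEC replicate 1. Without 1 library, *Cdkn1a* reached 0.18 and *Mdm2* 0.073 at most. No pairing of mice by replicate number was seen. Same-numbered libraries had correlations of deviations from -0.53 to 0.55, and 2 of 12 libraries correlated best with their own number. The correlation was 0.64 between CBPWTp53ΔIEC replicate 1 and CBPAAp53ΔIEC replicate 3, both high in small intestine RNA, so this check could miss a pairing. With the number as a block, 1 gene was called in the averaged comparison and 251 had an unadjusted p under 0.05. With 3 mice per group and a cutoff of 0.5 on the log2 scale, smaller effects may have been missed.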

Other observations

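Without the 4 libraries high in small intestine RNA, the genes of smallest unadjusted p after *Clec16a* were *Cirbp*, *Stk17b*, *Tppp3* and *Etv5*. *Cirbp*, a cold-inducible RNA-binding protein, had a log2 fold change of 0.52 (SE 0.09), and *Stk17b* had -0.41 (SE 0.08). *Tppp3* had -0.66 (SE 0.12), and *Etv5*, within 20 Mb of *Crebbp* on chromosome 16, had -0.47 (SE 0.09). The adjusted p by edgeR's quasi-likelihood test was 0.139 for *Cirbp*, and none of these genes was called. The clock output gene *Dbp* had 0.61 (SE 0.13) and *Spdef* had -0.42 (SE 0.08) in that fit. Cholesterol and fatty acid synthesis genes had 10 of 29 members on the higher and 1 on the lower side at an unadjusted p under 0.05 without these libraries, beside 3.39% and 3.8% of all genes, and a median of 0.12, whereas with all libraries 0 of 29 reached it and the median was -0.00202.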
